A study of Mus musculus with 3 samples.

Results

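The posterior parietal association area (PTL) of the mouse cortex was described here from the capture spots that the study had assigned to it on 3 brain sections. A spot counted as PTL when the area label deposited with it was PTL, and each spot was then found by its barcode on the position list of its own section. This gave 437 PTL spots of 8549 listed spots in all, or 5.11% (95% Clopper-Pearson interval 4.65 to 5.60%). The control section held 138 of them, the resilient section 148 and the susceptible section 151. PTL made up 18.9% of the 2313 spots of the Isocortex, which the study divided into PTL, the retrosplenial area (RSP), the primary somatosensory area (SSp), the auditory area (AUD) and the temporal association, entorhinal and perirhinal areas (TEP).

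The posterior parietal cortex is an association area. It lies between the retrosplenial cortex on its medial side and the somatosensory cortex on its lateral side, and in rodents it is known for its part in spatial navigation and in decisions that draw on several senses. Like the rest of the neocortex it is layered, from a cell-poor layer under the pia to deep layers that rest on white matter, so that distance from the brain surface stands in part for cortical depth.

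The mice were male C57BL/6J animals of 8 weeks. The resilient (RES) and susceptible (SUS) animals had gone through chronic social defeat stress (CSDS), in which a mouse meets a larger aggressive CD-1 mouse each day, for 10 days, and their brains were taken 1.5 h after the last exposure. RES animals had a social interaction ratio above 1 and SUS animals one below 1, while the control (CON) animals had met non-aggressive C57BL/6 mice instead. One coronal section of the left hemisphere, 10 µm thick, was placed on a 10x Visium slide for each condition. With 1 section per condition there was no replicate of any condition, so each value below compares 3 sections, and the condition cannot be told apart from the animal, the section, its cut or its library.

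The deposited table gave 5 measures for each spot. The count of unique molecular identifiers (UMIs) is a number of captured RNA molecules, though not of all of them in every spot. The number of genes is how many genes had at least 1 UMI. The other measures are the percentages of a spot's molecules that came from mitochondrial genes, from ribosomal protein genes and from red blood cell genes. Mitochondrial transcripts are abundant in neurons, ribosomal protein transcripts belong to the translation machinery, and globin transcripts are the usual mark of red blood cells. Brains had been rinsed to remove blood before they were frozen. Which genes each percentage counts is not stated in the sources. The percentages also rest on another total than the UMI count, larger in at least 1 spot. A CON spot of 12165 UMIs was listed at 0.00702% red blood cell, less than 1 of its UMIs would make. Which molecules the UMI count leaves out was not tested. UMIs and the mitochondrial percentage of a spot thus cannot be taken as independent measures. A Visium spot covers several cells, so every value is that of a small piece of cortex, and fewer cells and less RNA per cell cannot be told apart.

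The CON section held 37536349 UMIs, RES 31196847 and SUS 34979160, of which PTL took 6.53%, 7.25% and 6.79%. No PTL spot had fewer than 1000 UMIs. Some capture places of the slide carried PTL on more than one section. All 3 sections shared 65 PTL barcodes, which are positions on the slide and not cells.

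The area label could not be set against marker genes, because counts per gene were not used here, and its position is given instead. The study drew the areas from the stained image and a brain atlas with marker genes, so position describes the label and is no independent check of it. PTL formed 1 connected patch in CON and SUS, and in RES a patch of 147 spots with 1 spot apart. The only areas that touched it were RSP, SSp and the fibre tracts (FB), the white matter under the cortex. In CON 67.4% of PTL spots were surrounded by PTL on all 6 sides, in RES 66.9% and in SUS 69.5%. The patch was about equally thick in the 3 sections: the median sum of the distances to the tissue edge and to the nearest FB spot was 12, 12 and 11 steps of 100 µm on the hexagonal grid. In CON 4 PTL spots lay in the first row of the capture area, where tissue may run past it.

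**Figure D1:**
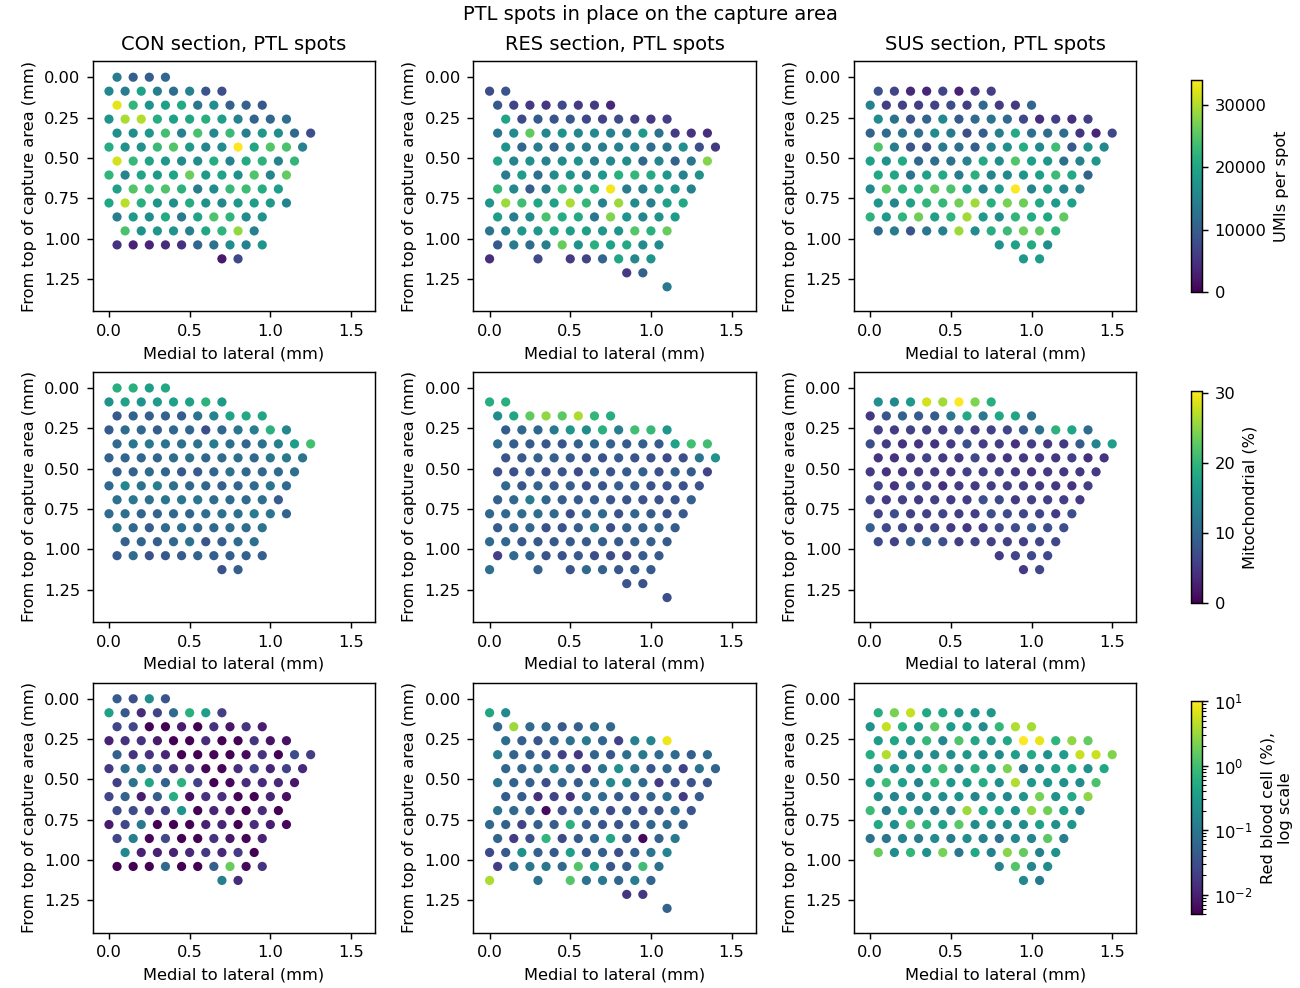
Maps of PTL with 1 column per section (CON, RES, SUS) and 1 point per spot, with millimetres from the most medial PTL spot across and millimetres from the top of the capture area down. Colour gives UMIs per spot (top), the mitochondrial percentage (middle) and the red blood cell percentage on a log scale (bottom, with the lowest values and 0 in the darkest colour). The outermost spots hold few UMIs and high mitochondrial percentages, and the red blood cell maps brighten from CON to RES to SUS.

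The section comparison asked how PTL looked after defeat stress in an animal that was resilient and in one that was susceptible. PTL spots of CON held more UMIs than those of RES, and the red blood cell percentage was several times higher in RES and many times higher in SUS than in CON. The mitochondrial percentage was lowest in SUS. The ribosomal protein percentage and the number of genes at matched UMIs differed by a few percent.

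UMIs per PTL spot had a median of 17568 in CON (lowest spot 2183, highest 33835), with a 95% order-statistic interval of 16780 to 18790. In RES the median was 15497.5 (14493 to 16417; spots from 3804 to 33314), and in SUS 15914 (14580 to 17724; spots from 3157 to 33945). These intervals cover the spread among spots of a section only. The ranges of single spots overlapped almost fully, and the interval of CON lay above that of RES and overlapped that of SUS. Against CON, PTL of RES held 0.882 times the UMIs (0.771 to 0.978) and PTL of SUS 0.906 times (0.776 to 1.06). The same ratios over all spots were 0.779 and 0.848, and with each section scaled to its own median those of PTL turned above 1, to 1.13 and 1.07.

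PTL was among the areas richest in RNA on each section. By median UMIs it ranked 1st of 17 labelled areas in CON, 2nd in RES and 3rd in SUS. The coefficient of variation of UMIs over PTL spots was 32.9% in CON, with RES at 39.0% and SUS at 41.2%.

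Genes per PTL spot followed UMIs closely. CON spots had a median of 5631.5 genes (5497 to 5765), RES spots 5238 (5007 to 5384) and SUS spots 5318 (5033 to 5503). Across the spots of each section genes and UMIs ranked almost alike, with a Spearman rho of 0.99 in all 3 sections, as a description over spots that share a library. Genes were therefore also compared among spots of 10000 to 15000 UMIs. In that window 26 CON spots had a median of 4946.5 genes (4508 to 5155), 36 RES spots 4895 (4689 to 4976) and 32 SUS spots 4699.5 (4614 to 4787). RES thus stood at 0.990 of CON (0.910 to 1.10) and SUS at 0.950 (0.895 to 1.06). Both intervals include 1, and they cover the spread among spots of these sections only.

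**Figure D2:**
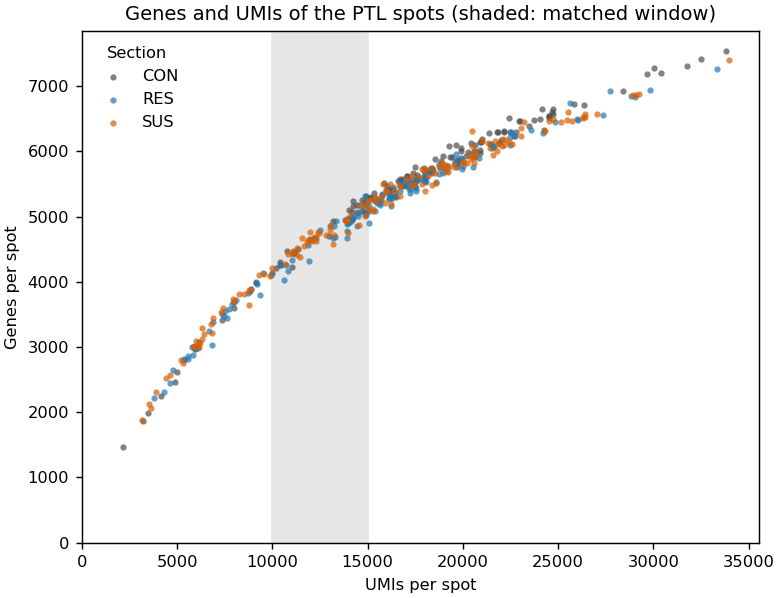
Genes per spot against UMIs per spot for the 437 PTL spots, coloured by section, with the matched window of 10000 to 15000 UMIs shaded. The 3 sections lie along one curve, and the median genes inside the window are 4946.5 in CON, 4895 in RES and 4699.5 in SUS.

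The mitochondrial percentage of PTL spots had a median of 10.5% in CON (10.3 to 10.9%; spots from 7.30 to 21.2%). It was 8.80% in RES (8.55 to 9.12%; spots from 5.50 to 26.6%) and 5.73% in SUS (5.52 to 6.12%; spots from 4.22 to 30.4%). None of the 3 intervals overlapped, while the ranges of single spots did. Relative to CON, RES stood at 0.835 (0.782 to 0.888) and SUS at 0.544 (0.505 to 0.596), and SUS stood at 0.652 of RES (0.605 to 0.716).

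The SUS value was further from CON in PTL than in the other cortical areas. The ratio of SUS to CON was 0.809 in RSP, 0.616 in SSp, 0.651 in AUD and 0.786 in TEP, against 0.767 over all spots. The interval of PTL lay below those of RSP, AUD and TEP and overlapped that of SSp (0.581 to 0.655). The ratio of RES to CON in PTL was inside the range of the other areas, 0.774 in AUD to 0.940 in RSP. Whether PTL differed from the other areas in this could not be tested with 1 section per condition.

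The ribosomal protein percentage hardly differed between sections. Median values were 7.22%, 7.09% and 7.06% for CON, RES and SUS, and single spots ran from 5.68% to 10.2% over the 3 sections. RES stood at 0.982 of CON (0.950 to 1.02) and SUS at 0.977 (0.940 to 1.02).

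The red blood cell percentage separated the sections most. CON had a median over PTL spots of 0.0126% (0.0105 to 0.0146%), RES of 0.0565% (0.0493 to 0.0624%) and SUS of 0.287% (0.241 to 0.366%). RES thus held 4.49 times the CON level (3.36 to 5.96) and SUS 22.9 times (16.4 to 35.0), and SUS held 5.09 times the RES level (3.85 to 7.42). At the median CON depth of 17568 UMIs a level of 0.0126% is only a few molecules per spot. Ratios to CON thus divide by a value near the floor, and their size is uncertain beyond the intervals. The other cortical areas were higher as well, SUS standing at 16.7 times CON in RSP, 29.0 times in SSp, 10.8 times in AUD and 12.3 times in TEP. Over all spots of the sections the ratios were 4.65 for RES and 18.3 for SUS. Scaled to these, PTL stood at 0.967 in RES and 1.25 in SUS, close to the section as a whole.

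Single spots showed the same order. In CON 16 of 138 PTL spots (11.6%) were listed at 0, and in RES and SUS none of 148 and 151 (upper 95% Clopper-Pearson bounds 2.46% and 2.41%). The other 4 areas had near shares at 0, with 9.91% of spots in CON, 0.450% in RES and none of 625 in SUS. In SUS the lowest PTL spot was at 0.0829%, above 123 of the 138 CON spots (89.1%) and 112 of the 148 RES spots (75.7%). More than 1% of molecules were from red blood cell genes in 1 spot of CON, 5 of RES and 31 of SUS, the last 20.5% of its PTL spots (14.4 to 27.9%). The highest spot of CON reached 1.72%, that of RES 8.28% and that of SUS 9.54%, so that the highest RES spot came near the highest of SUS. In the other areas 2.39%, 4.95% and 19.2% of spots passed 1% in CON, RES and SUS, against 0.725%, 3.38% and 20.5% in PTL.

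**Figure D3:**
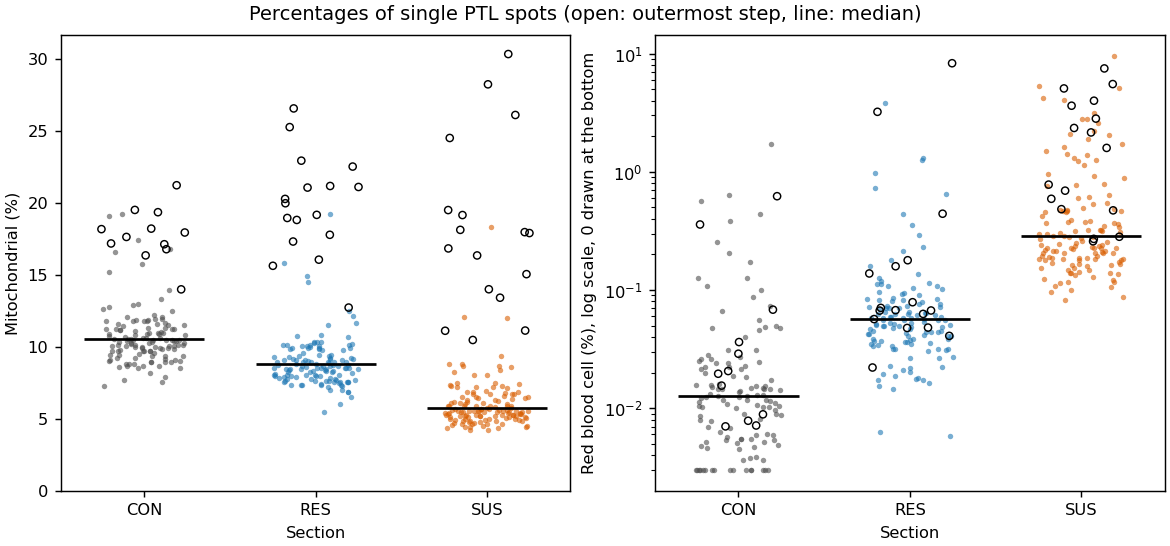
Mitochondrial percentage (left) and red blood cell percentage on a log scale (right) of every PTL spot by section, with spots at 0 drawn at the bottom. Open circles are spots at the outermost step and lines are medians, at 10.5, 8.80 and 5.73% on the left and 0.0126, 0.0565 and 0.287% on the right. In the mitochondrial plot 7, 9 and 9 of the 10 highest spots of CON, RES and SUS are open circles.

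Distance from the tissue edge was counted in steps to the nearest uncovered place of the capture area outside the tissue, so that 1 step is a spot beside such a place. Places beyond the capture area were not counted as outside. The 4 CON spots in its first row stood at 1 to 3 steps, with mitochondrial percentages of 16.8 to 19.2%. The brain surface may be nearer to CON spots there than their step says, so CON values at steps 2 and 3 may include surface spots. How far this changed the steps of CON was not tested. PTL reached 12 steps in CON and RES, and 11 in the SUS section, with a median of 5 steps in each. From the edge inwards UMIs were low and then high, the mitochondrial percentage was high and then low, and the ribosomal protein percentage was highest at the deepest step with at least 10 spots in every section, step 10.

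Among these 10 steps, UMIs were lowest at the outermost one in all 3 sections. The median there was 10771 in CON (12 spots, 7964 to 14919), 5927 in RES (17 spots, 3804 to 8875) and 5875 in SUS (17 spots, 3157 to 11078). The outermost spots of RES lay within the range of those of SUS, and most spots of both lay below the lowest of CON. The highest median came at step 8 in each section, at 22029 for CON, 20520 for RES and 22207 for SUS. From the lowest to the highest step the median grew 2.05-fold in CON, 3.46-fold in RES and 3.78-fold in SUS.

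The gap between sections in UMIs was therefore uneven over depth. At the outermost step, RES held 0.550 times and SUS 0.545 times the UMIs of CON. At step 4 the ratios were 0.673 and 0.614, and at step 8 they were 0.931 and 1.01. At step 10 both were above 1, at 1.07 and 1.27. SUS was below CON in 6 of the 10 steps, which were steps 1 to 6, and above it in the 4 deeper ones. In RES 9 of 10 steps were below CON.

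Genes per spot had the same shape. Outermost spots had a median of 4371.5 genes in CON, against 2980 (0.682 of CON) in RES and 3005 (0.687 of CON) in SUS. At step 8 the sections stood at 6169, 5872 and 6136 genes. In CON the highest median, 6290 genes, was at step 4 instead.

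The mitochondrial percentage was highest at the outermost step. There CON had a median of 17.8% (14.0 to 21.2%), RES of 20.0% (12.7 to 26.6%) and SUS of 17.9% (10.5 to 30.4%), and the spots of the 3 sections overlapped. One step in, they were 12.2%, 9.62% and 8.05%. The lowest median was 9.27% in CON, at step 10, 7.79% in RES, at step 5, and 4.88% in SUS, at step 4. The fall from the highest to the lowest step was 1.92-fold in CON, 2.56-fold in RES and 3.67-fold in SUS.

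The low mitochondrial percentage of SUS was thus a feature of the spots below the surface. The ratio of SUS to CON was 1.01 at the outermost step and below 1 at the other 9 steps, between 0.468 at step 4 and 0.682 at step 10. In RES the ratio was 1.12 at the outermost step and between 0.777 and 0.889 at the other 9. Of the 10 spots with the highest mitochondrial percentage in each section, 7 were at the outermost step in CON, 9 in RES and 9 in SUS, where that step held 8.70%, 11.5% and 11.3% of PTL spots.

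The red blood cell percentage varied most with depth in SUS. In SUS the median was 1.59% at the outermost step (0.258 to 7.48%), 0.375% at step 2 and 0.140% at step 10, a span of 11.3-fold. The step medians of CON ran from 0.0105 to 0.0201% and those of RES from 0.0428 to 0.0675%. RES was above CON in 10 of 10 steps, by 3.20-fold to 5.28-fold. SUS was above CON in 10 of 10 steps too, by 11.7-fold at step 10 to 79.2-fold at step 1. The CON median of 0.0201% at step 1, over 12 spots with a median of 10771 UMIs, is only a few molecules per spot. The size of the ratio at step 1 is therefore uncertain. The median of SUS was hence above that of CON at each of the 10 steps, by a factor that changed with depth. Of the 10 highest spots, 5 lay at the outermost step in SUS, 3 in RES and 2 in CON.

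The ribosomal protein percentage was lower in between and highest near white matter. At step 10 CON had a median of 8.13%, RES of 7.90% and SUS of 8.06%, and at the lowest step of each section it was 6.82%, 6.59% and 6.57%. The span between steps was 1.19-fold to 1.23-fold. At the outermost step it was 7.52%, 7.70% and 7.91%.

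**Figure D4:**
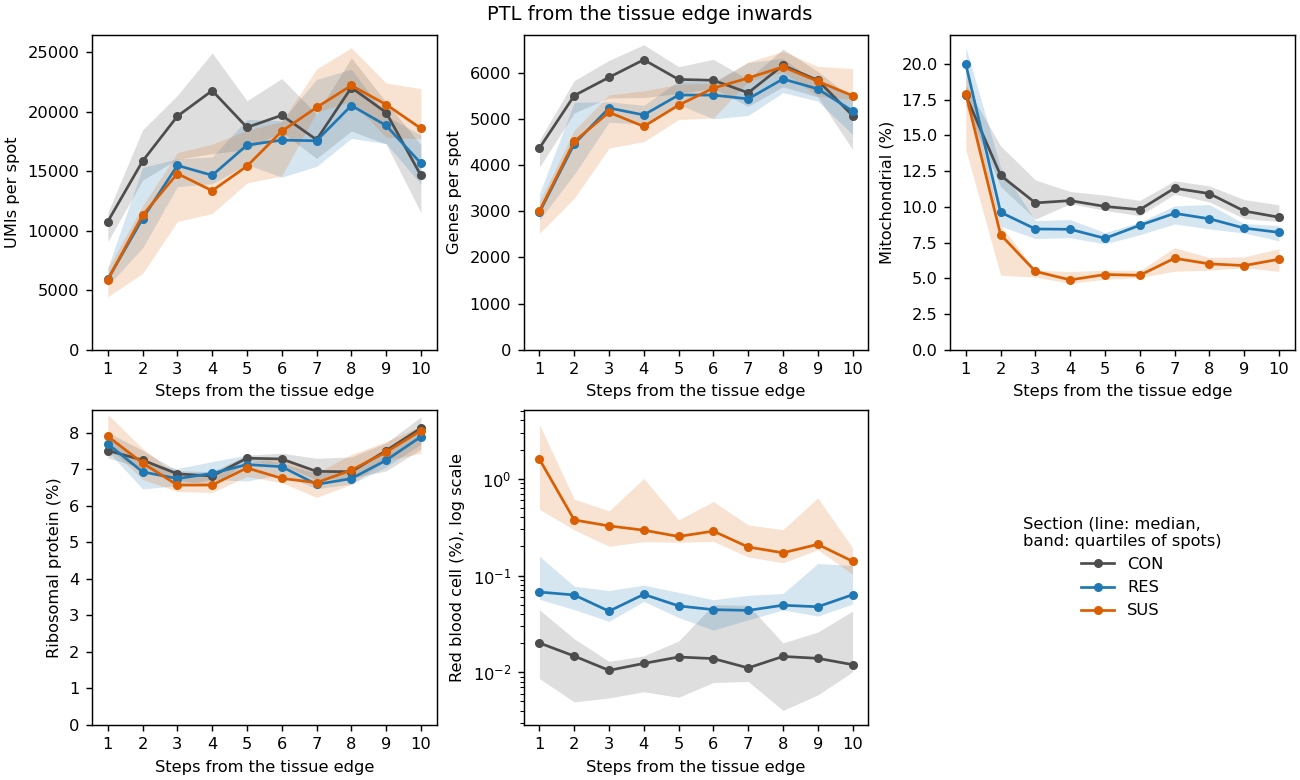
PTL values by steps of 100 µm from the tissue edge: UMIs, genes, mitochondrial percentage, ribosomal protein percentage and red blood cell percentage (log scale). Lines are medians of the spots of a section and bands their quartiles, for the 10 steps with at least 10 spots in every section. The lines of UMIs start at 10771, 5927 and 5875 and meet near step 8, and those of the red blood cell percentage stay apart at every step.

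Spots of 3 steps or less were set against the deeper ones, with the section as the pair. A 2-sided exact sign-flip permutation test over 3 sections cannot give a p below 0.25, so no comparison of this kind could pass 0.05, and adjusted p-values are over the 6 measures. UMIs near the edge were lower in 3 of 3 sections, at 0.819 (CON), 0.543 (RES) and 0.479 (SUS) times the deeper spots (exact p = 0.25, adjusted 0.375). The mitochondrial percentage was higher near the edge in 3 of 3, at 1.23, 1.21 and 1.46 times (exact p = 0.25, adjusted 0.375). With PTL split at its median distance instead, the ratio was 1.09 in CON, 1.03 in RES and, turned below 1, 0.950 in SUS. For the outermost step against steps 4 to 10, an alternative chosen after seeing the data, the mitochondrial ratios of CON, RES and SUS were 1.71, 2.34 and 3.21, and those of UMIs were 0.582, 0.337 and 0.312. The red blood cell percentage near the edge was 1.97 times that of the deeper spots in SUS and 1.19 times in RES, and stood at 0.977 in CON (exact p = 0.5, adjusted 0.6). For the outermost step against steps 4 to 10 the ratios of CON, RES and SUS were 1.55, 1.30 and 6.88, and with means over spots 0.841, 2.07 and 2.40. The ribosomal protein percentage stood at 0.977, 0.985 and 1.02 (exact p = 0.75). Genes at matched UMIs stood at 0.924 in CON, 0.9999 in RES and 0.988 in SUS (exact p = 0.25, adjusted 0.375), on 9 to 26 spots a group.

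Neighbouring PTL spots were alike to differing degrees. Spearman rho between the UMIs of touching PTL spots was 0.23 in CON over 366 pairs, 0.39 in RES over 389 and 0.61 in SUS over 404. Between UMIs and distance from the edge it was 0.11 in CON, 0.41 in RES and 0.69 in SUS. Without the outermost step and the spots beside FB it was 0.12, 0.48 and 0.68. The rank of UMIs thus followed the counted distance least in CON and most in SUS. In CON that distance may misstate depth at the top of the capture area. For the red blood cell percentage the same rho with distance was -0.05 in CON, -0.05 in RES and -0.42 in SUS. For the mitochondrial percentage it was -0.49, -0.31 and -0.15 in CON, RES and SUS. Without the outermost step and the spots beside FB it was -0.23, 0.002 and 0.16. The mitochondrial percentage of RES and SUS thus did not fall with distance among those spots. These values describe spots that share a section and a library and carry no p.

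White matter formed the other border of PTL. The spots that touched FB, 9 in CON, 14 in RES and 12 in SUS, had median UMIs of 4890 (2183 to 12959), 10713.5 (4609 to 26058) and 16842.5 (8764 to 28935). One step further from FB the medians were 17509, 17998.5 and 21767. Beside white matter CON thus had the lowest median of the 3 sections, whereas it had the highest at the brain surface. Of the 10 spots with the fewest UMIs, 7 of CON, 3 of RES and 0 of SUS touched FB, while 3, 7 and 9 lay at the outermost step.

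Beside FB the mitochondrial percentage was 8.82% in CON and 8.05% in RES, below the PTL median of those sections, and 6.15% in SUS, above it. Their ribosomal protein percentage was 8.60%, 8.49% and 8.17%, above the PTL median of each section. The red blood cell percentage there had a median of 0 in CON, 0.0793% in RES and 0.206% in SUS. The CON spots there had the fewest UMIs, and at that depth a median of 0 cannot be told apart from the low level of CON elsewhere in PTL. How far each label at the white matter border takes in fibres was not tested.

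PTL was also split into spots nearer to RSP (medial) and spots nearer to SSp (lateral). In CON the medial spots had a median red blood cell percentage of 0.0207% (72 spots) and the lateral ones 0.0103% (59 spots), a ratio of 2.01 (1.17 to 3.67). That ratio was 1.06 in RES and 0.945 in SUS, with intervals that include 1, and the difference between sections was not tested. Both CON levels are only a few molecules per spot. Medial UMIs stood at 1.05, 0.942 and 0.790 times the lateral ones. The ribosomal protein percentage was lower on the medial side in 3 of 3 sections, at 0.958, 0.945 and 0.986 times (exact p = 0.25, adjusted 0.625 over 5 measures).

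The last comparison set PTL against the other areas of the Isocortex on the same sections. PTL had higher median UMIs and genes than the pooled spots of the other areas in each section, and a lower median mitochondrial percentage, the last depending on how spots and areas were weighted. Compared within steps of edge distance, UMIs and genes of RES turned below those areas, at 0.981 and 0.988 times, and those of CON and SUS stayed above 1. The mitochondrial percentage stood well below that of RSP, the medial neighbour, and median UMIs over all spots were close to those of SSp, the lateral one. With 3 sections no p could be below 0.25, and the family of 6 measures was adjusted within each comparison.

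Against the pooled spots of the other 4 areas, PTL held 1.09 (CON), 1.07 (RES) and 1.11 (SUS) times the UMIs (exact p = 0.25, adjusted 0.375). The interval was above 1 in CON (1.01 to 1.19) and included 1 in RES (0.981 to 1.17) and SUS (0.963 to 1.28). Genes stood at 1.04, 1.05 and 1.07 times (exact p = 0.25, adjusted 0.375), and genes at matched UMIs at 1.03, 1.04 and 1.002. For genes too the interval was above 1 in CON (1.01 to 1.08) and included 1 in RES (0.990 to 1.10) and SUS (0.985 to 1.12). The mitochondrial percentage stood at 0.963, 0.983 and 0.789 (exact p = 0.25, adjusted 0.375), the lowest ratio being that of SUS, but with means over spots in place of medians it was 1.03, 1.08 and 0.880, and with the 4 areas weighted equally 0.957, 1.009 and 0.824. The ribosomal protein percentage stood at 1.04, 1.03 and 0.999, and the red blood cell percentage at 0.779, 0.884 and 1.03 (both exact p = 0.5).

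Set against RSP, PTL had the lower mitochondrial percentage in each section. RSP stood at 13.2%, 12.4% and 10.7% in CON, RES and SUS, and the ratio of PTL to RSP was 0.797 (0.755 to 0.869), 0.708 (0.672 to 0.787) and 0.536 (0.482 to 0.613), with an exact p of 0.25 and an adjusted p of 0.3. The red blood cell percentage of PTL was 0.650, 0.680 and 0.890 times that of RSP (exact p = 0.25, adjusted 0.3), with intervals that include 1 in CON (0.455 to 1.06) and SUS (0.449 to 1.46), and at equal steps it was below RSP in 9 of 10, 9 of 10 and 5 of 9 steps. At equal steps from the edge the mitochondrial percentage of PTL was below that of RSP in 9 of 10 steps in CON, 9 of 10 in RES and 8 of 9 in SUS. The lower mitochondrial percentage of PTL was thus also present at equal distance from the edge.

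Near the edge against deep, the mitochondrial percentage of RSP stood at 1.005, 0.984 and 0.938 in the same order, and that of PTL at 1.23, 1.21 and 1.46. The intervals of both areas overlapped in each section, and the difference was not tested. In SSp it was 1.13, 1.08 and 1.02, and in AUD 1.22, 1.18 and 1.21, near PTL in CON and RES. TEP had spots near the edge only in SUS, where the ratio was 2.26. At the outermost step RSP stood at 18.9%, 17.1% and 13.9%, SSp at 16.7%, 18.5% and 13.2%, and PTL at 17.8%, 20.0% and 17.9% in the order CON, RES, SUS. AUD stood there at 16.8%, 17.9% and 18.3%.

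SSp, the lateral neighbour, was close to PTL in median UMIs over all spots. PTL held 1.04, 1.01 and 0.957 times the UMIs of SSp in CON, RES and SUS (exact p = 1). At equal steps the ratio ran from 0.792 to 1.31 in CON, 0.737 to 1.36 in RES and 0.668 to 1.23 in SUS. It was highest at step 8 in each section. The mitochondrial percentage was lower in PTL in 3 of 3 sections, at 0.897, 0.926 and 0.792 times (exact p = 0.25, adjusted 0.75), and at equal steps in 9, 8 and 8 of 10 steps. The red blood cell percentage stood at 1.14, 0.992 and 0.902 (exact p = 1). UMIs near the edge were 1.01, 0.948 and 0.535 times the deeper ones in SSp, and 0.819, 0.543 and 0.479 times in PTL. In AUD they were 0.916, 0.755 and 0.402 times.

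AUD and TEP lay further off. The ratio of PTL to AUD in UMIs was 1.11, 1.11 and 1.08 (exact p = 0.25, adjusted 0.75), and in the mitochondrial percentage 1.03, 1.11 and 0.858. TEP held a median of 15829, 10577 and 9580.5 UMIs, so that PTL held 1.11, 1.47 and 1.66 times as many (exact p = 0.25, adjusted 0.3). TEP also had the lowest mitochondrial percentage of the 5 areas in each section, and PTL stood at 1.56, 1.57 and 1.08 times its level (exact p = 0.25, adjusted 0.3).

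**Figure D5:**
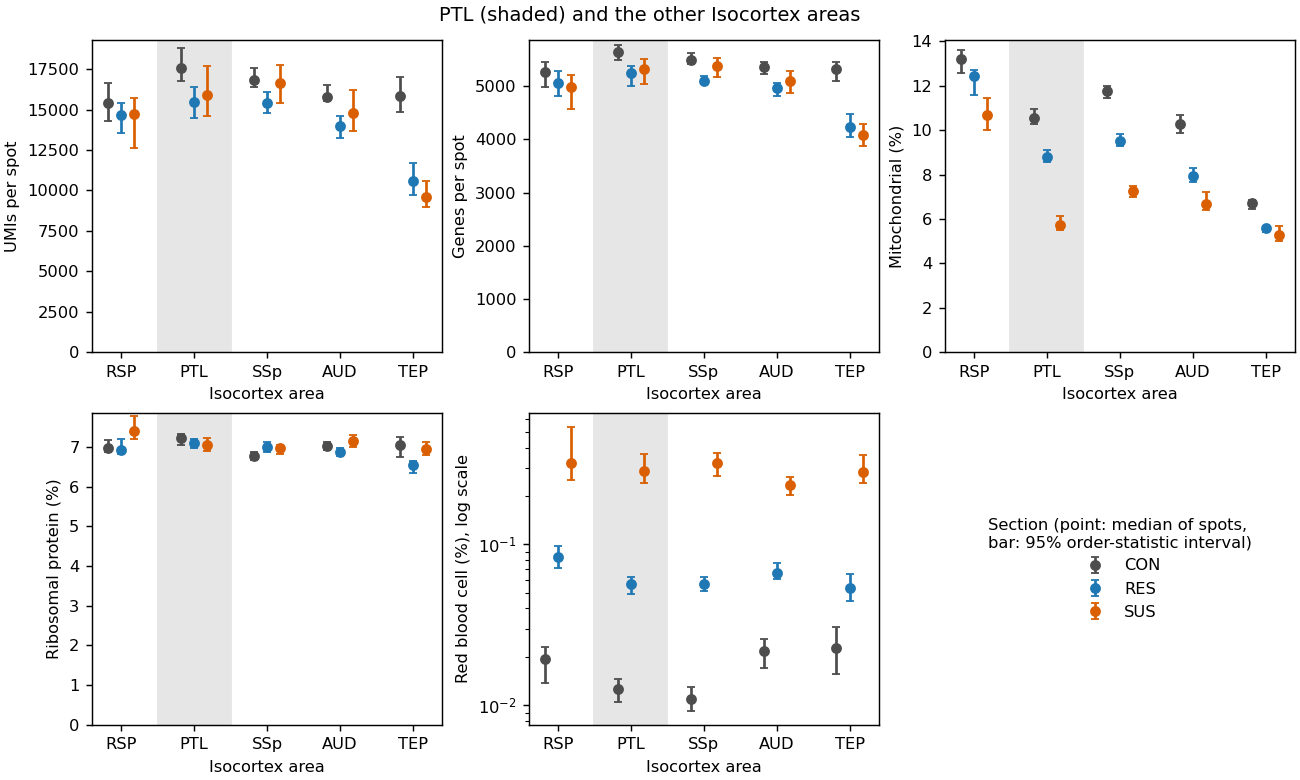
Medians of PTL (shaded) and of the other Isocortex areas by section for UMIs, genes, and the mitochondrial, ribosomal protein and red blood cell percentages (the last on a log scale). Bars are 95% order-statistic intervals over spots. The mitochondrial percentage of SUS is 5.73% in PTL against 10.7% in RSP and 7.24% in SSp, and the red blood cell percentage keeps the order CON, RES, SUS in each area.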

How the data were processed

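Spatial RNA was measured on Visium slides in 3 sections, 1 per group, grouped by their titles. Per the labels and methods, the authors mapped reads to mm10 (bcl2fastq, cutadapt and Space Ranger 1.0.0 in the submitters' processing notes, ST Pipeline in the methods), read the matrix into R with Seurat, and removed genes with under 10 reads or in fewer than 2 spots and spots with under 200 UMIs. The deposited table lists 1 spot below that minimum, with 188 UMIs and not in PTL, and no spot was removed here. The deposited UMI values are unnormalized counts per spot, over genes that are not stated, and the deposited mitochondrial, ribosomal and red blood cell values are percentages. Multiplied by a spot's UMIs, the percentages gave whole numbers (within 0.001) for 0.222%, 0.211% and 0.188% of spots, so they rest on another total and were compared only as percentages. PTL members and area lists were chosen with earlier results of these data known.

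Medians with 95% binomial order-statistic intervals, ratios of medians (interval bounds divided), Clopper-Pearson shares and exact sign-flip permutation tests over the 3 sections, adjusted by Benjamini-Hochberg, were computed with Python 3.11.15, numpy 2.4.6, pandas 2.3.3 and scipy 1.17.1, and tested on simulated data. Intervals cover the spread and counting error within a section only. Edge distance was counted in steps of the grid of 4992 places to the nearest uncovered place joined to the border of the capture area. Covered places not in the table, 911 in CON, 1033 in RES and 950 in SUS, were counted as tissue. Areas named are the 5 of the Isocortex and those touching PTL. No gene was named, since counts per gene were not used here.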

Additional observations from a re-analysis of the deposited data

How the results depend on the processing

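Of 175 alternative values, 145 moved by less than the spread, among them 14 of 14 for genes at matched UMIs between sections. Of the 175, 29 equalled the reported value and say nothing of stability, mostly because no PTL spot was under 1000 UMIs or because the edge was unchanged. With each section scaled to its own median over all spots, the PTL ratio to CON became 1.13 in RES and 1.07 in SUS for UMIs, 1.08 and 1.04 for genes, 0.907 and 0.710 for the mitochondrial percentage, and 0.967 and 1.25 for the red blood cell percentage, so that UMIs, genes and (in RES) the red blood cell percentage changed side. In RES, genes at matched UMIs (0.990 to 1.004) and the ribosomal protein percentage (0.982 to 1.009) also crossed 1 there, by less than the spread. With means over spots the mitochondrial ratio was 0.897 in RES and 0.655 in SUS, and the red blood cell ratio in SUS 15.5. With edge steps weighted equally the mitochondrial ratio in SUS was 0.639. Against the other areas, the median ratio over sections was 1.09 for UMIs and became 1.03 against RSP and SSp alone and 1.03 within edge steps (below 1 in RES), that of genes (1.05) became 1.03, 1.01 and, with means, 1.04, and that of the mitochondrial percentage (0.963) became 1.03 with means. Between spots near the edge and deeper ones, splitting PTL at its median distance gave 0.797 for UMIs, 0.895 for genes and 1.03 for the mitochondrial percentage (below 1 in SUS). Means gave 1.01 for genes at matched UMIs, 1.53 for the mitochondrial percentage and 2.07 (that of RES) for the red blood cell percentage. The outermost step against steps 4 to 10, an alternative chosen after seeing the data, gave 0.337 for UMIs, 0.539 for genes, 2.34 for the mitochondrial, 1.09 for the ribosomal protein and 1.55 for the red blood cell percentage. It gave no value for genes at matched UMIs in RES, where no outermost spot was in the window. Leaving out spots that touch FB, also chosen after seeing the data, gave 1.001 for the ribosomal protein percentage, and leaving out each section in turn gave 0.981 to 1.001, the highest without CON, so that percentage has no stable direction. Apart from the settings' own construction, the cause of these shifts was not tested. A description of the authors' cluster labels was not run, since the table used here gives areas and no such labels. No paired analysis was possible between conditions because each has 1 section. Precision is limited by 3 sections and, at single steps, by 10 to 17 spots.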
